A study of Homo sapiens with 101 samples.

Results

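GDF15, ATF3, PLK3, SERTAD1 and PLK2 are stress genes that both p53 and ATF4 signalling are known to reach. They were taken by name, with every probe set assigned to 1 of them alone, which gave 9 of 40914 probe sets assigned to 1 gene. They are 5 of 19774 genes with such a probe set, and all 5 were among 11496 genes tested, by a probe set whose group mean was 4 or more on the log2 scale in all 17 groups. GDF15 encodes a secreted stress hormone, ATF3 a transcription factor of the ATF and CREB family, PLK2 and PLK3 serine/threonine kinases of the polo-like family, and SERTAD1 a transcriptional cofactor that binds CDK4.

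The tumour suppressor p53 is stabilised after DNA damage and switches on genes of cell cycle arrest, DNA repair and apoptosis, among them CDKN1A and MDM2. ATF4 is translated when the initiation factor eIF2 is phosphorylated, as in amino acid shortage, endoplasmic reticulum stress or oxidative stress, and drives genes of amino acid supply as well as DDIT3 and TRIB3. Immediate early genes such as EGR1 are switched on by growth factor and kinase signalling, and ATF3 also responds to these signals.

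Transcript levels were measured in HT-1080 cells, a human fibrosarcoma line, on 101 Affymetrix arrays in 17 groups, 11 with a compound and 6 controls. Each compound was given at 1 dose, picked in the study to raise total p53 by 1.5-fold, and the labels give no exposure time. The labels name compounds by codes, read here as usual abbreviations where the code is one, while GAD and BRO are kept as codes. Stock solutions were made in DMSO, and every well carried the same vehicle dilution.

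The first set had tert-butylhydroquinone at 200 µM (tBHQ), the code GAD at 2 mM, ethylnitrosourea at 2 mM (ENU), hydrogen peroxide at 100 µM (H2O2), the enediyne neocarzinostatin at 10 ng/ml (NCS) and the crosslinker mitomycin C at 0.1 µM (MMC), all compared with DMSO_pooled. The tie of these 6 compounds to that control was inferred from the labels, so their comparisons share its 6 libraries. Quercetin at 30 µM (QUE), etoposide at 0.3 µM (ETP), curcumin at 10 µM (CUR) and the code BRO at 600 µM were each compared with a DMSO group named after the compound. The alkylating agent methyl methanesulfonate, given at 200 µM (MMS), was compared with MMS_CTL. Groups held 6 replicates, except for 5 in H2O2 and in MMC.

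Array medians lay between 2.89 and 2.92 in the BRO set and between 3.48 and 3.54 in the ETP set, with the other sets between, so each compound was compared within its own set. Over tested genes, ETP replicate 2 lay 2.60 times and QUE replicate 2 lay 2.52 times as far from the rest of its group as the median library did. No other library passed 1.74 times, the value of CUR replicate 5. Of 8 mesenchymal markers, VIM, FN1, SPARC, CD44 and LGALS1 had means over 11 in every control, COL6A1 had 7.86 to 9.30, S100A4 5.04 to 5.998 and COL6A2 3.88 to 4.95. The 6 epithelial and 4 endothelial markers were under 4 in every group, as were 3 of 4 leukocyte markers, and CD68 reached 6.38. Whether replicates were separate cultures is not given in the labels, so the spread behind the p-values may be technical. Signals are averages over all cells of a sample, so fewer responding cells and a smaller response per cell cannot be told apart. The number of arrays and the signal over background limit the precision.

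A gene was called higher or lower at an adjusted p under 0.05 in limma and a change of at least 1.5-fold, and values after gene names are log2 fold changes of a compound against its control ± standard error. With this rule 27 of 55 member and compound combinations were called higher, and 2 were called lower. PLK3 rose in 8 compounds, GDF15 and ATF3 in 7 each and SERTAD1 in 5, while PLK2 rose in 0 and fell in 2. Among all tested genes, 14 were called higher in 8 or more compounds, which is 0.122%. There were 38 genes called higher in 7 or more, 0.331% of those tested, and 121 in 5 or more, 1.05%. A fall in 2 or more compounds was more common, with 1347 genes or 11.7%. Where a gene's probe sets were averaged, 9 of the 27 calls higher were lost and 0 gained. All 9 were calls of ATF3 or PLK3.

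GAD was the compound in which all 5 genes were called, 4 higher and PLK2 lower, where 11.1% of tested genes were called higher and 15% lower. In ENU 4 of 5 rose and 0 fell, beside 4.77% of tested genes higher and 6.11% lower. ETP also raised GDF15, ATF3, PLK3 and SERTAD1, with 0 lower, beside 2.06% higher and 0.618% lower. These 3 compounds had the highest median change over the 5 genes, 1.20 in GAD, 1.09 in ENU and 1.06 in ETP.

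NCS, QUE and MMS had 3 of the 5 genes higher and 0 lower. In NCS the genes were GDF15, ATF3 and PLK3, beside 1.48% of tested genes higher and 0.966% lower. QUE raised the same 3 genes, beside 6.38% higher and 6.65% lower. MMS raised ATF3, PLK3 and SERTAD1, beside 4.46% higher and 6.56% lower.

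In CUR ATF3 and PLK3 rose and 0 fell, beside 1.27% of tested genes higher and 0.931% lower. BRO raised GDF15 and SERTAD1, with 0 lower, beside 2.46% higher and 4.93% lower. With tBHQ GDF15 rose and PLK2 fell, beside 5.39% higher and 4.44% lower. H2O2 raised PLK3, with 0 lower, beside 0.765% higher and 0.165% lower. With replicate number as a block in the fit, GDF15 and ATF3 were called higher in H2O2 as well. In MMC 0 of 5 were called in either direction, beside 0.165% of tested genes higher and 0% lower, although all 5 differences were positive. At an unadjusted p under 0.05 the MMC count was 4 of 5, and a limma fit of all 17 groups called 0 of 5.

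**Figure D1:**
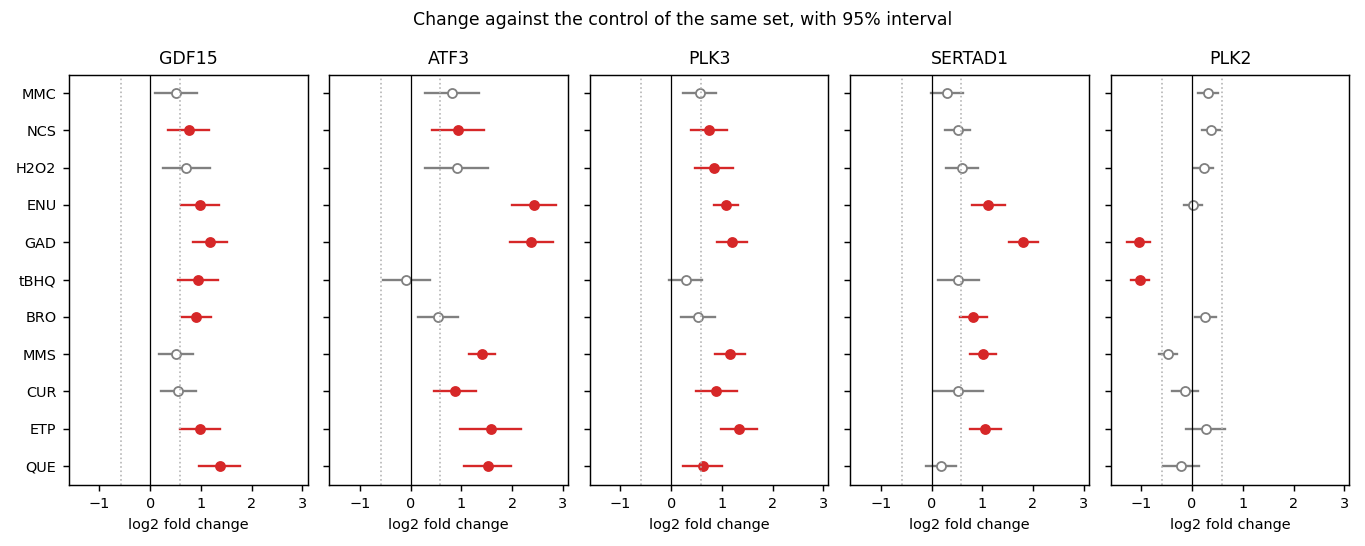
Log2 fold change of each gene in each compound against the control of the same set (points) with its 95% interval (lines), compounds down the page and 1 panel per gene. Filled red points are called changes, and dotted lines mark 1.5-fold in each direction. PLK2 has its 2 called points left of the lines, in GAD and tBHQ, and the other 4 genes have theirs on the right.

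Promoter letters were read from the RefSeq windows of GRCh38.p14, which run from 250 bases before to 50 bases after a gene's start. They were read because GDF15, ATF3, PLK3 and SERTAD1 were all called higher in GAD, ENU and ETP. All 5 genes matched, with 2 windows for ATF3, and 3 windows held a match to a searched motif on either strand. PLK3 (chr1:44800227-44800376, plus strand, the 150 bases before its start) and the first ATF3 window (chr1:212565157-212565306, plus strand, 250 to 101 bases before the start) hold the letters TGATGNAA of the C/EBP-ATF response element, at which ATF4 is known to bind as a partner of C/EBP proteins. PLK2 (chr5:58460087-58460236, minus strand, the 150 bases before its start) holds the CRE half-site TGACG. Capitals mark the match in each sequence.
PLK3: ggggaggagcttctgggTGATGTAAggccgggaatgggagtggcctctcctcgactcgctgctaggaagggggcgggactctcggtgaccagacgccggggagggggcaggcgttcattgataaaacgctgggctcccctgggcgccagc
ATF3: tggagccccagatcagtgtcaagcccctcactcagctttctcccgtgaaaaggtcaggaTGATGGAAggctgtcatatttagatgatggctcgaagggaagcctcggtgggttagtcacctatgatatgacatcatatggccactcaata
PLK2: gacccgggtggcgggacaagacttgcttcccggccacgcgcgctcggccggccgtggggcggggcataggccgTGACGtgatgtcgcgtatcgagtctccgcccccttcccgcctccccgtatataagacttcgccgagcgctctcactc

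The match in PLK3 runs from position -133 to -126 from the gene's start, the one in ATF3 from -191 to -184 and the one in PLK2 from -77 to -73. Of 35116 RefSeq windows of the same length, 3.62% hold TGATGNAA and 24.55% hold TGACG. Of the other motifs, the full CRE TGACGTCA is in 1.85% of windows, the AP-1 letters TGANTCA in 7.71% and the CArG box in 1.29%. The p53 response element with at most 2 letters off is in 0.16%. None of these motifs was in the windows of the 5 genes. A window with the full CRE is also counted among those with TGACG. GDF15, SERTAD1 and the second ATF3 window held none of the motifs. A match is a description of letters in these windows, and no match says only that the letters are not there.

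GDF15 (221577_PM_x_at, chromosome 19, 18386158 to 18389176 in GRCh38.p14) is a TGF-beta family hormone that acts through the receptor GFRAL in the brainstem and is used as a marker of cell stress. The suffix x marks a probe set with probes that can match other transcripts, though the annotation gives it to GDF15 alone. Its change was positive in all 11 compounds, and it ran from 0.51 in MMS to 1.37 in QUE.

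GDF15 had a lowest, median and highest log2 signal of 12.51, 12.93 and 13.20 in QUE, against 10.77, 11.63 and 11.92 in QUE_DMSO. In GAD they were 12.24, 12.52 and 12.67, against 10.59, 11.40 and 11.61 in DMSO_pooled. All 6 QUE samples and all 6 GAD samples lay above every sample of their controls. The changes were 1.37 ± 0.19 in QUE (2.58-fold, limma adjusted p = 0.00094) and 1.18 ± 0.15 in GAD (2.26-fold, adjusted p = 2e-05).

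In ENU the signal of GDF15 was 11.85, 12.33 and 12.51, and in tBHQ 11.68, 12.30 and 12.57, against the same DMSO_pooled samples. In ETP it was 12.24, 12.50 and 13.06, against 10.97, 11.62 and 12.03 in ETP_DMSO. BRO gave 11.78, 12.21 and 12.59, against 11.05, 11.33 and 11.59 in BRO_DMSO. Treated samples and controls did not overlap in these 4 comparisons. Their changes were close, at 0.98 ± 0.17 in ENU, 0.97 ± 0.18 in ETP, 0.94 ± 0.19 in tBHQ and 0.91 ± 0.13 in BRO, with limma adjusted p of 0.00068, 0.0084, 0.0019 and 0.00035 in that order.

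The remaining rise of GDF15 was in NCS, with 11.46, 12.16 and 12.37 against 10.59, 11.40 and 11.61 in DMSO_pooled, and 5 of 6 NCS samples above every control. It came to 0.76 ± 0.19 (limma adjusted p = 0.028), and the call was lost without any 1 of NCS replicates 3, 4, 5 and 6 or DMSO_pooled replicates 2 and 4, with an adjusted p from 0.054 to 0.065. H2O2 samples had 11.45, 11.71, 12.27, 12.32 and 12.33, and 4 of 5 lay above every control. The H2O2 value of 0.71 ± 0.21 had an adjusted p of 0.12. With replicate number as a block it was 0.70 (adjusted p = 0.0054) and was called.

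CUR, MMS and MMC were not called for GDF15. In CUR it had 11.34, 11.61 and 11.98, against 10.61, 11.03 and 11.58 in CUR_DMSO, and 3 of 6 samples passed every control (0.55 ± 0.16, limma adjusted p = 0.060). In MMS it had 11.48, 12.13 and 12.23, against 11.002, 11.49 and 11.70 in MMS_CTL (0.51 ± 0.15, adjusted p = 0.020, under 1.5-fold). MMC samples had 11.40, 11.63, 11.90, 12.08 and 12.09 (0.51 ± 0.19, adjusted p = 0.56).

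DMSO_pooled replicate 1 had the lowest GDF15 signal of its group, 10.59, and the next was 11.23. Without it the GDF15 changes were 1.03 in GAD, 0.84 in ENU, 0.80 in tBHQ and 0.62 in NCS, all still called, and 0.57 in H2O2 and 0.37 in MMC.

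Differences between compounds were tested in 1 fit of all groups, as the difference of the changes against each control, with adjustment over all tested genes and 55 pairs together. Over those tests 11.3% were called. For GDF15 5 of 55 pairs differed, a count near that share, with QUE above MMC, MMS and CUR, and GAD above MMC and MMS. The sizes ran from 0.66 ± 0.19 for GAD over MMC to 0.86 ± 0.25 for QUE over MMS. No neighbours in its order of compounds were called different.

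**Figure D2:**
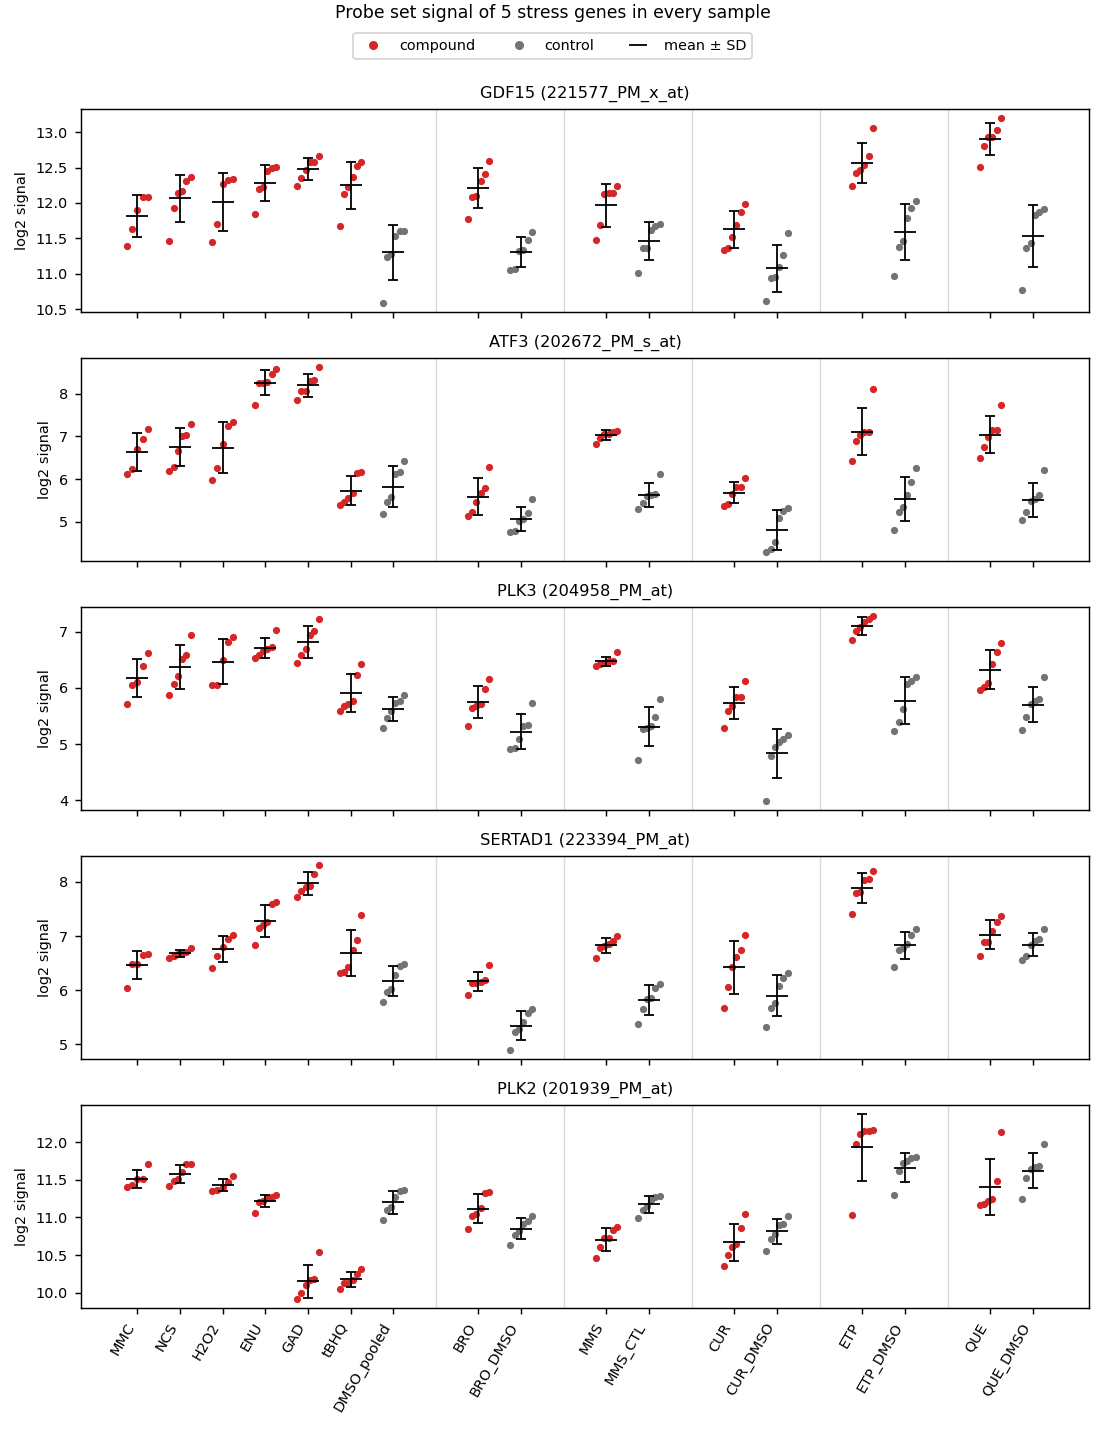
Log2 probe set signal (vertical axis) of each gene in every sample, with compounds (red) left of the control of their set (grey), and bars for the mean ± SD. Vertical lines part the 6 sets. ATF3 in ENU and GAD lies between 7.75 and 8.62, above every DMSO_pooled sample, and PLK2 in GAD and tBHQ lies below every DMSO_pooled sample.

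ATF3 (202672_PM_s_at, chromosome 1, 212565407 to 212620777) encodes a basic leucine zipper factor that is induced by many stresses, acts as a repressor or, with partners such as JUN, as an activator, and is known to bind p53. It had the widest range of the 5 genes, from -0.09 in tBHQ to 2.44 in ENU.

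ATF3 had a lowest, median and highest signal of 7.75, 8.26 and 8.57 in ENU, against 5.19, 5.85 and 6.42 in DMSO_pooled. In GAD it was 7.84, 8.18 and 8.62. Every ENU and GAD sample was over 1 log2 unit above the highest control. These rises were 2.44 ± 0.20 in ENU (5.42-fold, limma adjusted p = 2.6e-06) and 2.38 ± 0.20 in GAD (5.19-fold, adjusted p = 4.3e-07).

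In ETP ATF3 had 6.42, 7.07 and 8.11, against 4.80, 5.49 and 6.25 in ETP_DMSO. QUE gave 6.49, 7.06 and 7.74, against 5.04, 5.51 and 6.20 in QUE_DMSO. MMS gave 6.81, 7.06 and 7.13, against 5.29, 5.61 and 6.12 in MMS_CTL. None of these treated groups overlapped its control, and the MMS samples were the closest together, with an SD of 0.12. The rises were 1.57 ± 0.28 in ETP, 1.52 ± 0.21 in QUE and 1.40 ± 0.12 in MMS (limma adjusted p = 0.0059, 0.0012 and 2.5e-06). Without ETP replicate 2 the ETP value was 1.37, and without QUE replicate 2 the QUE value was 1.63.

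CUR raised ATF3 by 0.88 ± 0.19, with 5.37, 5.73 and 6.02 against 4.30, 4.80 and 5.33 in CUR_DMSO and no overlap (limma adjusted p = 0.022). The CUR call was lost without any 1 of CUR replicates 3, 4 and 6 or CUR_DMSO replicate 1, with an adjusted p from 0.050 to 0.056, and after quantile normalization (0.76, adjusted p = 0.051). In NCS ATF3 had 6.20, 6.84 and 7.29, against 5.19, 5.85 and 6.42 in DMSO_pooled, and 4 of 6 samples lay above every control. The NCS rise was 0.93 ± 0.24 (adjusted p = 0.032), and it lost its call without any 1 of NCS replicates 3 to 6 or DMSO_pooled replicates 1, 3 and 4, with an adjusted p from 0.055 to 0.077.

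The other 4 compounds were not called for ATF3. H2O2 samples had 5.97, 6.27, 6.82, 7.25 and 7.33 (0.91 ± 0.28, limma adjusted p = 0.13), and with the replicate block the value was 0.84 (adjusted p = 0.018) and called. MMC samples had 6.12, 6.25, 6.70, 6.94 and 7.18 (0.82 ± 0.25, adjusted p = 0.36). Both groups overlapped the controls, with 3 of 5 samples above all of them in each. BRO gave 5.13, 5.56 and 6.29, against 4.77, 5.04 and 5.53 in BRO_DMSO (0.53 ± 0.18, adjusted p = 0.042, under 1.5-fold). In tBHQ the samples had 5.39, 5.61 and 6.17 and lay within the range of DMSO_pooled (-0.09 ± 0.22, adjusted p = 0.79, 95% interval -0.55 to 0.38).

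Of 55 pairs of compounds, 27 differed in the change of ATF3, the most of the 5 genes. ENU exceeded 9 other compounds and GAD 8, and the ENU and GAD changes were not called different from each other (adjusted p = 0.89). ENU over tBHQ was the largest difference, 2.53 ± 0.23. tBHQ was also below MMC, NCS, H2O2, MMS, CUR, ETP and QUE, by 0.91 to 1.66.

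A second ATF3 probe set, 1554980_PM_a_at, was fitted with all probe sets on their own, where 3.82% of tests were called higher over the 11 comparisons together. It was called in 4 compounds, GAD (1.85 ± 0.15), ENU (1.73 ± 0.14), MMS (1.06 ± 0.14) and QUE (0.61 ± 0.16), with limma adjusted p of 4.4e-07, 3.6e-06, 0.00016 and 0.014. The control means were under 4 in 5 of 6 sets, so with those means set to 4 the rise was at least 1.67 in GAD and 1.55 in ENU, and 0.26 in QUE. In ETP it had 3.77, 4.07 and 4.19 against 3.38, 3.58 and 3.95 in ETP_DMSO (0.39 ± 0.11, adjusted p = 0.077), and in CUR it had 3.24, 3.39 and 3.52 against 2.995, 3.28 and 3.62 in CUR_DMSO (0.07 ± 0.11). The remaining ATF3 probe set, 1554420_PM_at, had no group mean over 3.48 and was not tested. With the mean of the 3 probe sets the calls in CUR (0.27) and NCS (0.42) were lost.

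PLK3 (204958_PM_at, chromosome 1, 44800377 to 44805990) is a kinase known to phosphorylate p53 and CHK2 after DNA damage. It was called in more compounds than the other 4 genes, and its changes ran from 0.28 in tBHQ to 1.33 in ETP.

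In ETP PLK3 had 6.86, 7.13 and 7.28, against 5.23, 5.85 and 6.19 in ETP_DMSO. MMS gave 6.39, 6.46 and 6.63, against 4.71, 5.30 and 5.80 in MMS_CTL. In GAD it had 6.45, 6.82 and 7.22, against 5.29, 5.66 and 5.87 in DMSO_pooled. All samples of these treated groups lay above all of their controls, as did all 6 of ENU, which had 6.54, 6.67 and 7.04. The rises were 1.33 ± 0.17 in ETP, 1.20 ± 0.13 in GAD, 1.16 ± 0.14 in MMS and 1.09 ± 0.11 in ENU, from 2.12-fold to 2.52-fold (limma adjusted p = 0.00056, 5.1e-06, 3.8e-05 and 1.1e-05).

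CUR gave 5.29, 5.75 and 6.13, against 3.99, 4.99 and 5.17 in CUR_DMSO, with no overlap (0.89 ± 0.19, limma adjusted p = 0.020). CUR_DMSO replicate 5 was the sample at 3.99, and without it the rise was 0.72 (adjusted p = 0.0096). NCS gave 5.88, 6.37 and 6.95, with all 6 samples above DMSO_pooled (0.75 ± 0.16, adjusted p = 0.017). The H2O2 samples had 6.05, 6.06, 6.51, 6.82 and 6.91, all above DMSO_pooled (0.85 ± 0.17, adjusted p = 0.030).

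The H2O2 call was lost without any 1 of H2O2 replicates 3, 5 and 6 or DMSO_pooled replicates 2 to 6, with an adjusted p from 0.054 to 0.085. QUE gave 5.97, 6.25 and 6.80, against 5.26, 5.74 and 6.19 in QUE_DMSO, with 3 of 6 above every control (0.62 ± 0.18, limma adjusted p = 0.018). Without QUE replicate 2 its change was 0.53, under 1.5-fold, and it was also under that fold without QUE replicate 1 (0.56) or QUE_DMSO replicate 5 (0.53) or 6 (0.58).

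PLK3 was not called in MMC, whose samples had 5.72, 6.05, 6.11, 6.39 and 6.62 (0.56 ± 0.15, limma adjusted p = 0.29). BRO gave 5.33, 5.70 and 6.17, against 4.91, 5.21 and 5.74 in BRO_DMSO (0.53 ± 0.16, adjusted p = 0.021, under 1.5-fold). In tBHQ it had 5.60, 5.74 and 6.43, with 2 of 6 above every control (0.28 ± 0.15, adjusted p = 0.17). Of 55 pairs of compounds 9 differed, beside 11.3% of such tests over all tested genes. In 4 of the 9, tBHQ was below ETP, GAD, MMS and ENU, by 0.80 to 1.05.

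The probe sets of PLK3 disagreed. 215462_PM_at was called in GAD alone, with 4.87, 5.69 and 6.09 against 4.16, 4.61 and 5.01 in DMSO_pooled (1.01 ± 0.18, limma adjusted p = 0.00031). In ETP it had 4.88, 5.48 and 5.62 against 4.79, 5.06 and 5.39 in ETP_DMSO (0.29 ± 0.14, adjusted p = 0.31), and in QUE 4.36, 4.46 and 5.54 against 4.72, 4.96 and 5.55 in QUE_DMSO (-0.41 ± 0.20, adjusted p = 0.14). The remaining PLK3 probe set, 229825_PM_at, had no group mean over 2.74 and was not tested. With the mean of the 3 probe sets, PLK3 was called in 1 compound, GAD (0.76), so the count of 8 rests on 204958_PM_at.

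**Figure D3:**
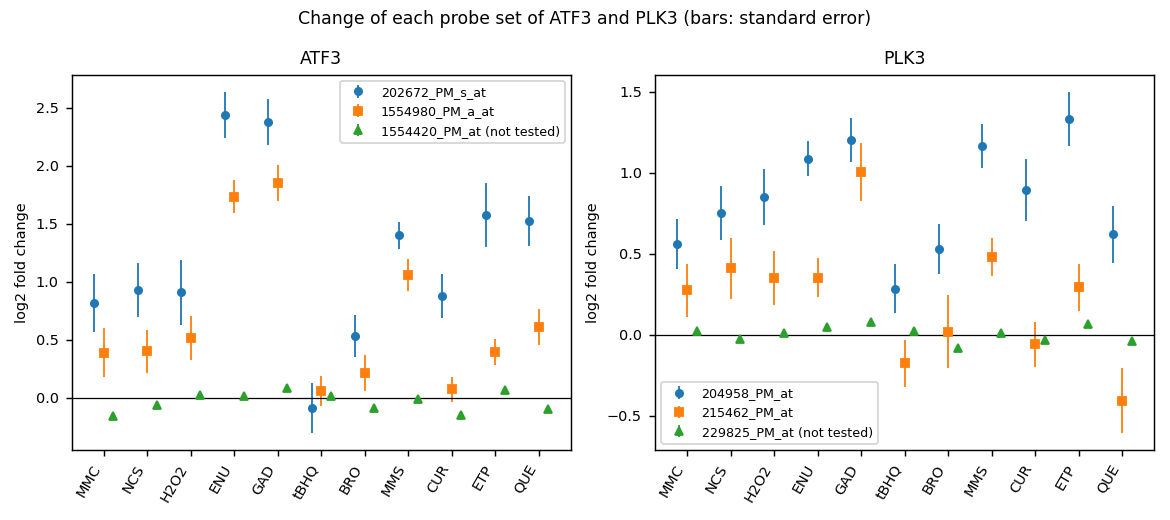
Log2 fold change (vertical axis) of each probe set of ATF3 (left) and PLK3 (right) in the 11 compounds, with bars for the standard error where a probe set was tested. The circles are the probe set of the highest mean signal, the squares lie nearer 0 than the circles in all 11 compounds for both genes, and the triangles, never tested, lie near 0.

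SERTAD1 (223394_PM_at, chromosome 19, 40421589 to 40425992) encodes a cofactor that binds CDK4 and the E2F partner DP1. Its change was positive in all 11 compounds and ran from 0.19 in QUE to 1.81 in GAD.

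In GAD SERTAD1 had 7.71, 7.92 and 8.31, against 5.79, 6.15 and 6.48 in DMSO_pooled. ENU gave 6.84, 7.24 and 7.63 against the same samples. Both groups lay wholly above the controls, and GAD lay wholly above ENU. The rises were 1.81 ± 0.13 in GAD (3.50-fold, limma adjusted p = 1.6e-07) and 1.12 ± 0.15 in ENU (2.17-fold, adjusted p = 0.00010), and they differed by 0.69 ± 0.16 (adjusted p = 0.00059). These were the only neighbours in the order of compounds called different for any of the 5 genes.

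ETP gave 7.41, 7.93 and 8.19, against 6.44, 6.81 and 7.13 in ETP_DMSO (1.06 ± 0.14, limma adjusted p = 0.00090). MMS gave 6.59, 6.84 and 7.002, against 5.37, 5.85 and 6.12 in MMS_CTL (1.01 ± 0.12, adjusted p = 3.5e-05). BRO gave 5.91, 6.14 and 6.46, against 4.90, 5.35 and 5.65 in BRO_DMSO (0.82 ± 0.12, adjusted p = 0.00037). In all 3 every treated sample was above every control.

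NCS had the tightest SERTAD1 values, 6.59, 6.68 and 6.78, all above DMSO_pooled, but its change of 0.51 ± 0.11 was under 1.5-fold (limma adjusted p = 0.016). In tBHQ it had 6.31, 6.58 and 7.39, with 3 of 6 above every control (0.52 ± 0.19, adjusted p = 0.045, under 1.5-fold). H2O2 samples had 6.41, 6.64, 6.80, 6.94 and 7.02 (0.60 ± 0.15, adjusted p = 0.061).

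CUR gave 5.68, 6.51 and 7.03, against 5.31, 5.92 and 6.32 in CUR_DMSO (0.53 ± 0.22, limma adjusted p = 0.17). MMC samples had 6.05, 6.48, 6.48, 6.65 and 6.67 (0.30 ± 0.15, adjusted p = 0.79). QUE gave 6.63, 6.999 and 7.37, against 6.57, 6.87 and 7.14 in QUE_DMSO (0.19 ± 0.13, adjusted p = 0.30, 95% interval -0.10 to 0.47). QUE is thus the compound with the highest GDF15 change and the lowest SERTAD1 change. Of 55 pairs 19 differed for SERTAD1, and GAD exceeded each of the other 10 compounds, by 0.69 to 1.62.

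PLK2 (201939_PM_at, chromosome 5, 58453982 to 58460086) is a kinase known as a p53 target and as a regulator of centriole duplication and of synapses. It was called higher in 0 of 11 compounds, with an unadjusted p under 0.05 and a positive change in 4 of them. It fell in GAD and tBHQ.

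PLK2 had 9.92, 10.13 and 10.54 in GAD, against 10.96, 11.21 and 11.36 in DMSO_pooled. In tBHQ it had 10.05, 10.15 and 10.32. All 6 samples of each compound lay below every control sample. PLK2 fell by 1.05 ± 0.10 in GAD (0.483-fold, limma adjusted p = 1.8e-06) and by 1.02 ± 0.08 in tBHQ (0.492-fold, adjusted p = 1.6e-06), and these falls were not called different from each other (adjusted p = 0.91).

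In MMS PLK2 had 10.47, 10.73 and 10.87, against 10.997, 11.19 and 11.29 in MMS_CTL, again with no overlap. The MMS change of -0.47 ± 0.08 (0.723-fold, limma adjusted p = 0.00076) was under 1.5-fold and so was not called. It was smaller in size than that of tBHQ, and that difference also stayed under 1.5-fold (adjusted p = 0.011).

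Among the positive changes, NCS gave 11.42, 11.56 and 11.72, all above DMSO_pooled (0.38 ± 0.08, limma adjusted p = 0.019, under 1.5-fold). MMC samples had 11.41, 11.43, 11.52, 11.52 and 11.71, all above the controls as well (0.32 ± 0.09, adjusted p = 0.32). BRO gave 10.84, 11.08 and 11.33, against 10.64, 10.87 and 11.02 in BRO_DMSO, with 5 of 6 above (0.26 ± 0.10, adjusted p = 0.049, under 1.5-fold). So the samples of these 3 compounds mostly lay above their controls by small steps.

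H2O2 samples had 11.35, 11.37, 11.41, 11.46 and 11.55 (0.23 ± 0.08, limma adjusted p = 0.21). ENU gave 11.06, 11.23 and 11.29, within the DMSO_pooled range (0.02 ± 0.08, adjusted p = 0.89, 95% interval -0.15 to 0.19). CUR gave 10.35, 10.63 and 11.04, against 10.56, 10.84 and 11.02 in CUR_DMSO (-0.14 ± 0.12, adjusted p = 0.48). The last pair of groups overlapped over most of its range.

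In ETP and QUE 1 library shifted the size of the PLK2 change, but leaving it out altered neither the sign nor the call. ETP gave 11.03, 12.12 and 12.17, against 11.30, 11.73 and 11.80 in ETP_DMSO (0.27 ± 0.18, limma adjusted p = 0.43), and without ETP replicate 2, the sample at 11.03, it was 0.45 (adjusted p = 0.0091), still under 1.5-fold. QUE gave 11.17, 11.24 and 12.14, against 11.24, 11.66 and 11.97 in QUE_DMSO (-0.22 ± 0.17, adjusted p = 0.33). Without QUE replicate 2, the sample at 12.14, it was -0.36 (adjusted p = 0.019).

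Of 55 pairs of compounds, 22 differed in the change of PLK2, and 16 of these set GAD or tBHQ below another compound. The sizes ran from 0.81 for QUE over tBHQ to 1.42 for NCS over GAD. MMS was below MMC, NCS, H2O2, BRO and ETP, by 0.70 to 0.84, and the remaining pair was NCS over QUE.

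Side by side with p53 targets, the 5 genes had different company in different compounds. The p53 list held 40 target genes without these 5, of which 35 were tested, and 0 were called lower in any compound. ETP had 25 called higher, ENU 23, QUE 22, NCS 20, H2O2 18, GAD 14, MMS 14, BRO 9 and MMC 7, while tBHQ and CUR had 0 each. Over all tested genes the share called higher ran from 0.165% in MMC to 11.1% in GAD. The median change of the list was 0.89 in ETP, 0.77 in ENU, 0.75 in QUE, 0.13 in CUR and -0.20 in tBHQ, and that of all tested genes lay between -0.02 and 0.06 in every compound. The list was assembled with earlier results of these data known, so its counts are a description.

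CDKN1A, the cell cycle inhibitor p21, was called in 9 compounds, from 0.70 in MMC to 1.37 in GAD, and MDM2, the ubiquitin ligase that degrades p53, in 8. In CUR CDKN1A changed by 0.51 and MDM2 by 0.44, and in tBHQ by 0.33 and -0.12, with none of the 4 values called. CUR raised ATF3 and PLK3, on 1 probe set each, and tBHQ raised GDF15, with 0 of 35 p53 targets called higher. Over all tested genes 1.27% were called higher in CUR and 5.39% in tBHQ, so a count of 0 is not far from these shares. With the mean of probe sets the CUR values were 0.27 for ATF3 and 0.27 for PLK3, and neither was called.

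The list of 32 ATF4 genes, all tested, behaved otherwise. GAD had 19 called higher and 3 lower, and tBHQ 10 higher and 0 lower. QUE had 5 higher and 1 lower, CUR 4 and 0, ENU 2 and 2, MMS 2 and 6, and BRO 1 and 5. NCS had 0 higher and 9 lower, H2O2 0 and 2, ETP 0 and 1, and MMC 0 and 0. Of all tested genes, 11.1% were higher and 15% lower in GAD, 5.39% and 4.44% in tBHQ, and 6.38% and 6.65% in QUE. The shares were 1.27% and 0.931% in CUR, 4.77% and 6.11% in ENU, 4.46% and 6.56% in MMS, and 2.46% and 4.93% in BRO. NCS had 1.48% and 0.966%, H2O2 0.765% and 0.165%, ETP 2.06% and 0.618%, and MMC 0.165% and 0%. In ENU and MMS the counts of 2 higher were near these shares. ETP and NCS raised GDF15, ATF3 and PLK3 with 0 of 32 ATF4 genes called higher, and their list medians were -0.36 and -0.34. A count of 0 higher is near the shares of all tested genes, 2.06% in ETP and 1.48% in NCS. The NCS calls of GDF15 and ATF3 were each lost on leaving out certain single libraries.

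ATF4 itself was called in GAD alone (0.68 ± 0.08). DDIT3, the transcription factor CHOP, rose in tBHQ (1.09 ± 0.29), GAD (0.99 ± 0.24) and ENU (0.94 ± 0.21) and fell by 0.80 ± 0.15 in MMS. TRIB3, a pseudokinase that restrains ATF4, rose in tBHQ (1.28 ± 0.16), GAD (1.07 ± 0.14) and QUE (0.84 ± 0.25). ASNS, asparagine synthetase, rose in GAD (1.42 ± 0.25), CUR (1.28 ± 0.34) and MMS (0.63 ± 0.16) and fell in NCS (-1.47 ± 0.31) and BRO (-0.87 ± 0.26). CHAC1, which degrades glutathione, was called higher in GAD and lower in MMS, with control means under 4 in both, so that only its GAD mean of 4.24 stood above that level.

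Thus GDF15 and ATF3 parted in tBHQ, where GDF15, DDIT3 and TRIB3 were called higher and ATF3 was not. The difference of the ATF3 changes between GAD and tBHQ, the compounds with the most ATF4 genes called, was 2.47 ± 0.23, and for GDF15 it was 0.23 ± 0.18 with a 95% interval from -0.12 to 0.59. PLK2 fell in these same 2 compounds.

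Of 22 immediate early genes, 15 were tested. QUE had 6 called higher, GAD 4 higher and 2 lower, ENU 3 higher and tBHQ 2 higher, while BRO, CUR and ETP had 1 higher, MMS 1 higher and 1 lower, and MMC, NCS and H2O2 had 0. Of all tested genes, 6.38% were higher in QUE, 4.77% in ENU and 5.39% in tBHQ, and in GAD 11.1% were higher and 15% lower. The 2 lower in GAD were thus near that share. In BRO, CUR, ETP and MMS the shares higher were 2.46%, 1.27%, 2.06% and 4.46%, with 6.56% lower in MMS. The list median ran from -0.10 in MMC to 0.54 in QUE and was 0.03 in GAD. EGR1, a zinc finger factor, rose in GAD (2.79 ± 0.59), and JUN, a partner of ATF3, rose in QUE (0.61 ± 0.15). IER3 was not called in any compound, and FOS was not tested, with no group mean over 3.51.

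Relatives and partners of the 5 genes had patterns of their own. PLK1, the kinase that drives mitosis, fell in GAD (-1.06 ± 0.16) and QUE (-1.36 ± 0.18), in both of which PLK3 rose. PLK4, the kinase of centriole duplication, fell in NCS (-1.02 ± 0.25) and rose in MMS (0.79 ± 0.17). SERTAD2 rose in ENU (0.71 ± 0.10), and SERTAD3 was not called in any compound.

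SERTAD4 fell in 5 compounds, by 1.94 in tBHQ, 1.74 in GAD, 1.01 in MMS, 0.92 in ENU and 0.63 in BRO, and SERTAD1 was called higher in 4 of these, tBHQ being the exception. JDP2, a leucine zipper factor close to ATF3, fell in NCS (-0.79 ± 0.19) and BRO (-0.68 ± 0.11). CDK4, the kinase that SERTAD1 binds, was not called in any compound, with changes from -0.42 in QUE to 0.12 in MMS. The receptor gene GFRAL was not analysed here.

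Likeness of pattern was measured as the Pearson r of log2 fold changes over 11 compounds, 6 of which share DMSO_pooled, and is a description with no test. Among the members, ATF3 and PLK3 were closest (r = 0.78), then PLK3 and SERTAD1 (0.71) and ATF3 and SERTAD1 (0.65). GDF15 had r = 0.39 with ATF3 and 0.00 with PLK3. PLK2 had r = -0.80 with TRIB3, -0.81 with ASNS and -0.77 with EGR1, and its largest changes, in GAD and tBHQ, weigh most in these values. GDF15 had 0.66 with DDIT3 and 0.10 with ASNS. With the p53 targets CDKN1A and MDM2, PLK3 had 0.63 and 0.57, SERTAD1 0.65 and 0.36, and ATF3 0.49 and 0.47. GDF15 had 0.18 and 0.10 with these 2 genes, and PLK2 0.19 and 0.50. SERTAD1 had 0.71 with EGR1 and -0.57 with JUN. EGR1 was called in GAD alone, where SERTAD1 also had its highest change.

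Over all tested genes, GDF15 was most like IFNGR1 (0.95), SECISBP2L (0.94) and FEM1B (0.94), and ATF3 most like ZNF195 (0.95), ANKRA2 (0.95) and BORCS7 (0.94). PLK2 was most like THBS1 (0.96), the matrix protein thrombospondin 1, PLAU (0.95), the urokinase plasminogen activator, and SLC2A1 (0.95), a glucose transporter. THBS1 had its lowest change in GAD, -2.45, as did PLAU, -1.31, while SLC2A1 was lowest in tBHQ, -0.98. PLK3 was most like GFOD3P (0.92), DCAF7 (0.91) and SLC25A46 (0.88), all with small changes and none called higher in any compound. SERTAD1 was most like USP35 (0.94), POLR2C (0.94) and NAT1 (0.92).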

How the data were processed

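Total RNA of HT-1080 cells was hybridised to Affymetrix HT HG-U133+ PM arrays, and the authors deposited log2 probe set summaries. The submitters' processing notes name Partek and GCRMA without versions. The reported values were not normalized again. Leaving out array controls, 54613 probe sets remained, and the array's annotation gave 1 gene to 40914 of them. Names and spans are those of a GRCh38.p14 gene list. A gene was represented by its probe set of highest overall mean (19774 genes), and it was tested where any of 17 groups had a mean of at least 4 (11496 genes). Of a repeated ETP_DMSO array (SD of the difference 0.179, next closest pair 0.235) the 2 values were averaged, leaving 100 replicates.

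A limma 3.58.1 fit (R 4.3.3, with data.table, version 1.17.8) of each compound and its control used empirical Bayes variances, and p-values were adjusted by Benjamini-Hochberg over all tested genes. A single fit of all groups gave the differences between compounds. The method was tested on simulated data. Motifs and figures used matplotlib 3.10.9, pandas 2.3.3 and numpy 2.4.6.

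The 5 genes and the gene lists were chosen with earlier results of these data known. The genes named are the 5 in every compound with all their probe sets, a panel of p53, ATF4, immediate early, family and partner genes whatever their result, and for each of the 5 the 3 genes with the most alike changes. THBS1, PLAU and the others of that last group carry no test.

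Pairing by replicate number was judged from how deviations from the group means correlated between same-numbered samples over 25479 probe sets. All pairs passed r = 0.1 in CUR, BRO, tBHQ, GAD, ENU, H2O2, NCS and MMC, but not in QUE (0.091 to 0.54), ETP (0.055 to 0.54) and MMS (-0.29 to 0.34). Alternatives varied the filter (none, or 6), the summary of probe sets (their mean, or each alone), the scaling (equal medians, or quantile normalization), the model (all groups together, trended and robust variances, the replicate block), the fold minimum (none), the repeated array and the floor (group means under 4 raised to 4), or left out libraries. FDXR, BTG2, EGR2 and GFRAL were not analysed here. No protein sequence is shown.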

Additional observations from a re-analysis of the deposited data

Results flagged for a closer look

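In groups of 5 or 6 samples, the highest or lowest sample of each member was compared with the nearest other one, and 4 of 85 groups had a sample far from the rest, where chance gives about 1 in 20 groups. PLK2 was lowest in ETP replicate 2 at 11.03, and the next ETP sample had 11.98. PLK2 was highest in QUE replicate 2 at 12.14, and the next QUE sample had 11.49. Both libraries also stood apart from their groups over all tested genes. GDF15 was lowest in DMSO_pooled replicate 1 at 10.59, and the next had 11.23. PLK3 was lowest in CUR_DMSO replicate 5 at 3.99, and the next had 4.78.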

How the results depend on the processing

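Of 825 values of the 5 genes under the alternatives, 799 kept their direction and side of the threshold, 13 lost a call, 13 gained one and 0 changed sign. Many of these values had little or no room to move. The filters, the single fit, the variances, the fold minimum and each probe set alone keep the log2 fold change, so no sign could change. The floor could not act on these 5 genes, with means of 4 or more in all 17 groups. The repeated array bears on ETP alone. The replicate block gave 8 compounds higher for GDF15 and 8 for ATF3, adding H2O2 in both, and changed no other call of the 5 genes. With no fold minimum PLK2 was higher in 2 compounds and 66 calls of ATF4 genes were higher, against 43. With the mean of its probe sets, PLK3 was higher in 1 compound, against 8. A fit of all groups added ATF3, GDF15 and SERTAD1 in H2O2. PLK3 in QUE was under 1.5-fold after quantile normalization within a set (0.58) and without ETP replicate 2 and QUE replicates 2 and 3 (0.48).

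Leaving out each replicate in turn gave 650 values, of which 29 lost a call, 13 gained one and 3 changed sign, all of them uncalled and near 0. These were ATF3 in tBHQ, which ran from -0.21 to 0.032 and was positive without DMSO_pooled replicate 6, and PLK2 in ENU, which ran from -0.030 to 0.050 and was negative without DMSO_pooled replicate 1 (-0.030) or 2 (-0.0017). The counts of compounds called higher ran from 6 to 8 for GDF15, 6 to 8 for ATF3, 7 to 9 for PLK3, 5 to 6 for SERTAD1 and 0 to 0 for PLK2, and from 2 to 2 for PLK2 lower. All calls of the 5 genes higher ran from 24 to 29, of p53 targets from 140 to 156, and of ATF4 genes from 40 to 49 higher and 23 to 40 lower. The mean of probe sets took more from the first of these totals, with 9 of 27 calls lost. Pairs of compounds called different ran from 4 to 7 for GDF15, 24 to 28 for ATF3, 7 to 11 for PLK3, 17 to 23 for SERTAD1 and 21 to 26 for PLK2. Calls gained were ATF3 and PLK3 in BRO, GDF15 in CUR without CUR_DMSO replicate 5 (0.66), in H2O2 without H2O2 replicate 1 (0.85) and in MMS without MMS replicate 1 (0.61), and SERTAD1 in CUR, H2O2 and tBHQ. The cause was not tested for any of these. Of the 9 probe sets of the 5 genes, 2 were under 4 in every group and the second ATF3 probe set reached 4 in 9 of 17 groups, so signal near background limits these 3.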
